A study of Mus musculus with 28 samples.

Results

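The genes described here are 10 RNA-binding regulators of neuronal splicing, the polypyrimidine tract-binding (PTB) genes Ptbp1, Ptbp2 and Ptbp3, the Rbfox genes Rbfox1, Rbfox2 and Rbfox3, the Nova genes Nova1 and Nova2, and the neuronal Elavl genes Elavl2 and Elavl4. They were chosen by symbol, 10 of the 41549 genes in the count tables, from a list of names and not by a threshold on any measured value, though with earlier results of these data known. Ptbp1 is the classic target of the microRNA miR-124 in neuronal splicing, and the study set out to lower miR-124 in the mouse brain with Cas9. Nuclear RNA was counted for 7 mice (animals 17 to 23) after sorting nuclei of the motor cortex. Every mouse carried an adeno-associated virus (AAV) vector for the nuclease Cas9 in both hemispheres, AAV-Cas9-miR-124-empty on the left and AAV-Cas9-miR-124-g4 on the right, so the effects of vector and brain side cannot be told apart. Nuclei were fixed with formaldehyde, stained for the HA tag and sorted. This gave 4 groups of 7 libraries, 28 in all: empty HA-negative, g4 HA-negative, empty HA-positive and g4 HA-positive, where HA-positive nuclei are those labelled Cas9 positive. The labels name no strain, age, sex or promoter, and do not say what g4 stands for.

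PTB proteins bind pyrimidine-rich stretches near exons and mostly repress their inclusion. Ptbp1 is the form of non-neuronal cells and progenitors, Ptbp2 takes its place in developing neurons, and Ptbp1 keeps Ptbp2 low by making it skip an exon. miR-124, abundant in neurons, represses Ptbp1. Rbfox proteins bind UGCAUG and Nova proteins bind clusters of YCAY, and both promote or block neuronal exons depending on where they bind. Elavl2 (HuB) and Elavl4 (HuD) bind U-rich and AU-rich RNA and act on splicing and on RNA stability.

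Pairing to the miR-124 seed was looked for in the longest 3′ untranslated region (3′ UTR) of each gene in GENCODE M21 (GRCm38), on the transcript strand only. The letters searched were GTGCCTT (7mer-m8), TGCCTTA (7mer-A1) and GTGCCTTA (8mer), and a 7mer inside an 8mer was not counted again. The 7 sites found in members are shown because 5 of them lie in the PTB genes. Each line gives 22 bases of the transcript strand, 5′ to 3′, with the match in capitals.
Ptbp1 8mer, chr10:79863518-79863539, plus strand: catagccgctttctGTGCCTTA
Ptbp2 8mer, chr3:119720068-119720089, minus strand: cttagttgacatacGTGCCTTA
Ptbp3 8mer, chr4:59475845-59475866, minus strand: taatttcttattatGTGCCTTA
Ptbp2 7mer-m8, chr3:119719328-119719349, minus strand: gggaccaaagtttatGTGCCTT
Ptbp3 7mer-m8, chr4:59473162-59473183, minus strand: aggaccaaagtttatGTGCCTT
Rbfox2 7mer-A1, chr15:77081244-77081265, minus strand: ttcagcccggagagcTGCCTTA
Nova1 7mer-A1, chr12:46695032-46695053, minus strand: atttaatatctgtttTGCCTTA
All 3 PTB genes held an 8mer, which 2.69% of 20992 protein-coding genes with a 3′ UTR held. Ptbp2 and Ptbp3 each held 2 sites, against 4.42% of genes with 2 or more. Their 7mer-m8 windows were identical at 21 of 22 bases, while the windows around the 8mers of those genes were identical at 11 of 22. These counts include the matched letters, which are the same in any 2 sites of a type. Rbfox2 and Nova1 held 1 weaker 7mer-A1 site each, and 0 were found in Rbfox1, Rbfox3, Nova2, Elavl2 and Elavl4, against 19.7% of genes with any site. The 3′ UTRs searched were 1494 bases long in Ptbp1, 1586 in Ptbp2 and 5015 in Ptbp3, with a median of 961 over all genes, and a longer UTR has more room for a match. A match is a description of letters, and no binding was measured.

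A library held 248612 to 902944 counts and 8687 to 13668 detected genes, so a gene at 10 CPM (counts scaled to library size with TMM factors) rests on a handful of counts. Detected genes were fewest on average in empty HA-positive nuclei (10376 ± 1372, mean ± SD). They were 11885 ± 1380 in g4 HA-positive, 12482 ± 624 in empty HA-negative and 12479 ± 858 in g4 HA-negative nuclei. Of the HA-positive libraries, 4 had fewer than 10000 detected genes: empty of animals 17, 21 and 22, and g4 of animal 18. Animal 19's g4 HA-positive library contained Xist (644 CPM) as well as Y-linked transcripts (48.0 CPM). In the other libraries labelled animal 19, Xist was at 0 CPM and Y-linked transcripts at 138 to 171 CPM. That g4 HA-positive library also held 1414 CPM of oligodendrocyte markers, against 94.2 to 202 CPM in the other 6 libraries of its group. Mature miR-124 was not measured. Reads at the hairpin Mir124a-2 were counted in 6 of 7 g4 HA-positive libraries (0 to 52.7 CPM, median 4.96, 57 counts) and in 0 of the other 21, and the hairpins Mir124a-1 and Mir124a-3 had 0 counts in all 28. Mir124a-2 was too sparse to be tested, and its hairpin lies inside a host transcript. The host transcripts of miR-124 differed between vectors in HA-positive nuclei by 0.29 ± 0.33 (log2 fold change ± SE, Mir124a-1hg) and 0.70 ± 0.48 (Mir124-2hg), neither called by edgeR's quasi-likelihood test (adjusted p = 0.926 and 0.833). None of these values measures how much miR-124 was lost. Cell type markers differed with the sort. Summed over 11 inhibitory neuron markers, levels were 849 to 1152 and 782 to 1131 CPM in empty and g4 HA-negative nuclei and 2439 to 4046 and 1933 to 3693 CPM in HA-positive ones. Summed over 10 oligodendrocyte markers they were 1089 to 2483 CPM in HA-negative nuclei and 53.7 to 118 CPM in empty HA-positive ones. Of the microglia markers, Cx3cr1, P2ry12, C1qa and C1qc had 0 counts in the empty HA-positive group. In such bulk libraries, fewer cells of a type and less RNA per cell cannot be told apart.

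**Figure D1:**
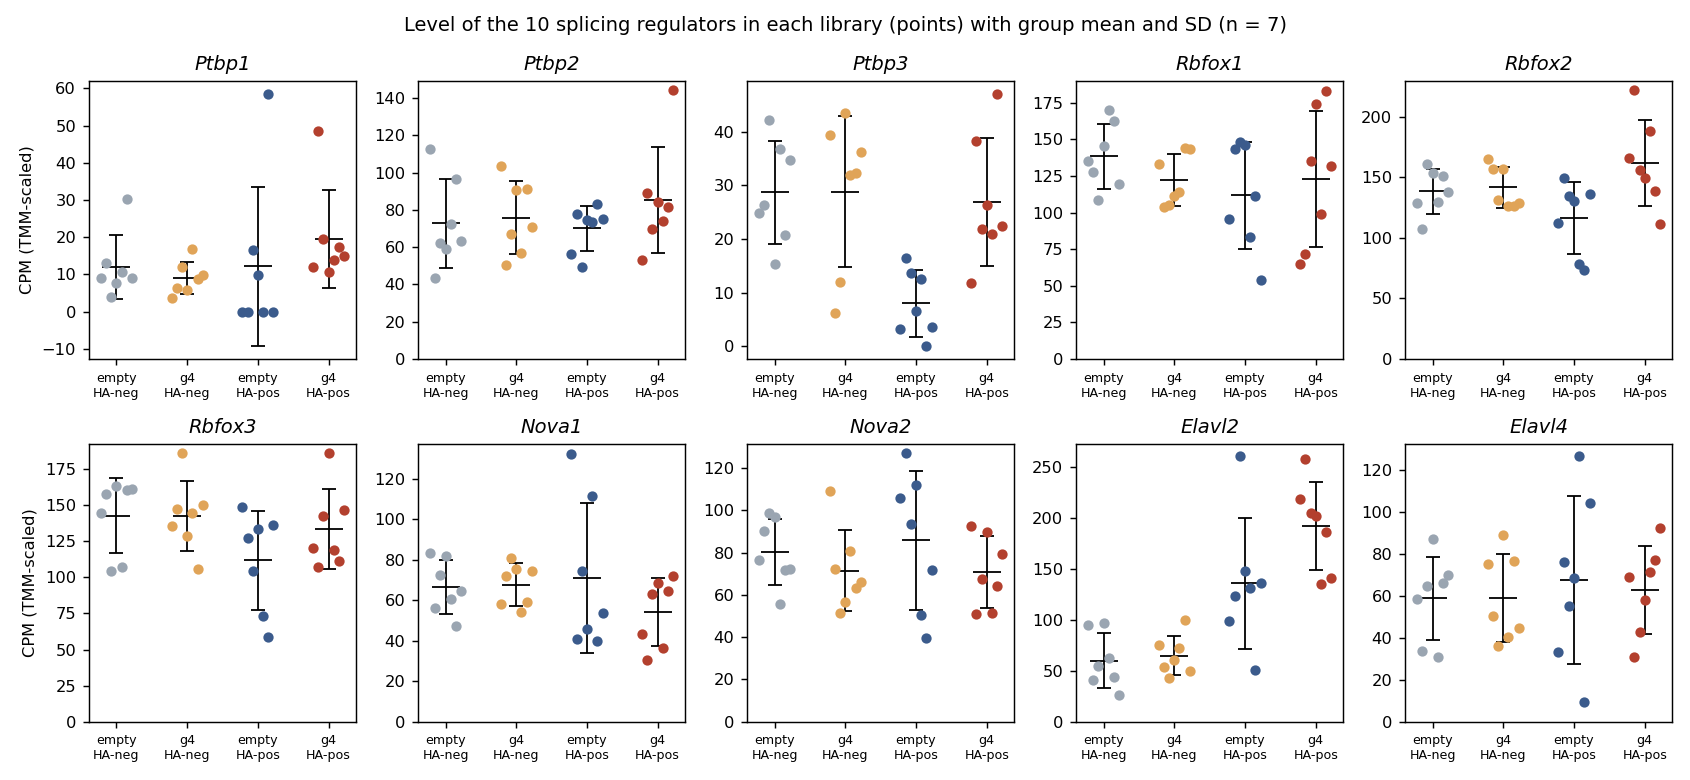
Level of each of the 10 genes in every library, in CPM with TMM factors (y axis, linear), by group (x axis). Points are the 7 libraries of a group, and the horizontal tick and bars are the mean and SD. Ptbp3 is low in empty HA-positive nuclei (0 to 16.4 CPM), and Elavl2 is higher in HA-positive than in HA-negative nuclei with each vector.

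The Rbfox genes were the most abundant per length and Ptbp1 and Ptbp3 the least in HA-negative nuclei. On the scale of CPM per kb of exon, empty HA-negative nuclei held Rbfox1 at 31.5 ± 5.07 (mean ± SD, n = 7 throughout), Rbfox3, which encodes the neuronal antigen NeuN, at 24.5 ± 4.47 and Rbfox2 at 17.0 ± 2.27. Each of these steps was larger than the SD of both neighbours. Elavl4 (10.9 ± 3.71), Nova2 (9.60 ± 1.87), Ptbp2 (7.93 ± 2.60), Nova1 (7.62 ± 1.52) and Elavl2 (7.21 ± 3.26) followed, and no neighbours among these 5 differed by more than their SDs. Ptbp3 (3.84 ± 1.28) and Ptbp1 (2.53 ± 1.80) came last, and did not differ from each other by more than their SDs. The order with g4 in HA-negative nuclei was the same except that Elavl2 (7.80 ± 2.34) stood just above Nova1 (7.75 ± 1.19). In HA-positive nuclei Elavl2 moved up to 16.3 ± 7.70 CPM per kb with empty and 23.1 ± 5.18 with g4. Whether reads in introns were counted is not given in the sources used here, and nuclear RNA is rich in them, so levels per exon length are approximate.

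With g4 instead of empty in HA-positive nuclei, 0 of the 8 members that could be tested were called, where 0.0599% of all 5011 genes tested were (3 genes; 0.02% higher and 0.0399% lower). DESeq2 and voom also called 0 members. The groups overlapped for every member, and 0.18% of genes tested had groups that did not overlap. A gene was called at an adjusted p under 0.05 by edgeR's quasi-likelihood test, Benjamini-Hochberg adjusted over all genes tested. An unadjusted p under 0.05 was found for 1 member, Rbfox2, and for 335 genes in all. Ptbp1 and Ptbp3 had too few counts to pass the filter on low counts and have values but no test here.

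Ptbp3, the PTB paralogue best known from blood cells, was higher on the g4 side of every animal in HA-positive nuclei, without passing a test. The gene lies at chr4:59471868-59549364 on the minus strand. In empty HA-positive nuclei it stood at 3.31, 16.4, 13.8, 6.51, 12.6, 0 and 3.59 CPM in animals 17 to 23, in that order. In g4 HA-positive nuclei of the same animals it stood at 11.8, 38.3, 21.8, 26.3, 20.9, 47.1 and 22.4 CPM. It was higher on the g4 side in 7 of 7 animals, and 6 of the 7 g4 libraries lay above the highest empty one, so the groups overlapped by a single g4 library, that of animal 17. The means were 8.03 ± 6.23 and 27.0 ± 11.9 CPM, from 24 and 99 counts. With the filter removed, edgeR gave a log2 fold change of 1.69 ± 0.65 (adjusted p = 0.322) and DESeq2 gave 1.68 ± 0.57 (adjusted p = 0.415), neither a call. Blocked on the animal, the edgeR value was 1.82 ± 0.75 (adjusted p = 0.972). Without the empty library of animal 22 the unblocked edgeR value was 1.44 ± 0.63 (adjusted p = 0.418). The 0 in animal 22 allows up to 5.67 CPM at 3 counts. Without the 4 libraries under 10000 genes the means were 10.1 ± 6.01 (n = 4) and 25.1 ± 11.8 CPM (n = 6), and without the g4 library of animal 19 the g4 mean was 27.8 ± 12.8 CPM (n = 6).

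In HA-negative nuclei the 2 groups overlapped widely. Ptbp3 stood at 15.3 to 42.2 CPM with empty (median 26.3) and 6.28 to 43.5 CPM with g4 (median 32.4), and its log2 fold change was 0.00 ± 0.32 (edgeR adjusted p = 1.00). The difference of the g4 effects between HA-positive and HA-negative nuclei, fitted over all 28 libraries, was 1.66 ± 0.64 on the log2 scale (edgeR adjusted p = 0.924), positive in 7 of 7 animals. This was not called, and adjusted p ran from 0.488 to 1.00 over 35 alternatives while the difference ran from 1.22 to 1.93. Cell type markers moved too. The sum over 9 astrocyte markers was 654 to 1343 CPM in empty and 998 to 2699 CPM in g4 HA-positive nuclei. Of 6 astrocyte markers tested there, 6 were higher with g4 and 0 were called. In the difference of the g4 effects, 8 of 9 tested oligodendrocyte markers were higher (median 1.61). So were 6 of 6 microglia markers (1.20), 8 of 8 astrocyte markers (0.65) and 8 of 11 excitatory neuron markers (0.36). Of 11 inhibitory neuron markers 2 were higher, and of all 7197 genes tested 3831 were, with 0 called. That fit includes the g4 HA-positive library of animal 19. It held 353 CPM of microglia markers (group median 32.1) and 1414 CPM of oligodendrocyte markers (group median 154). The part of these cell types in the Ptbp3 values was not tested.

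**Figure D2:**
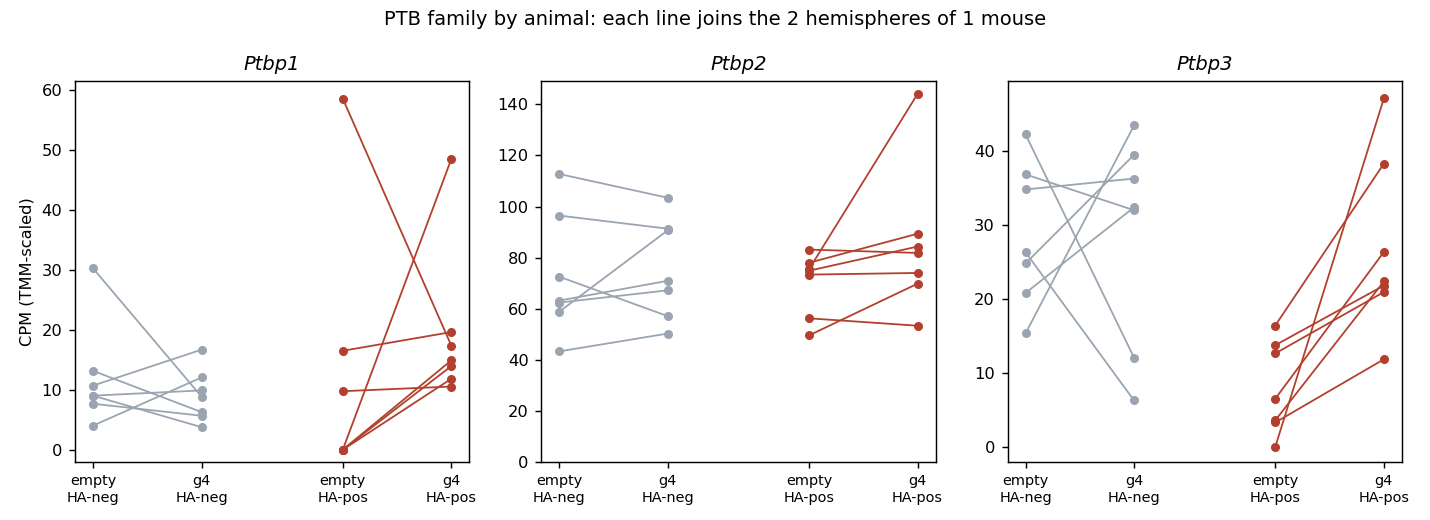
CPM (y axis, linear, TMM-scaled) of the 3 PTB genes by sort and vector (x axis), where each line joins the empty and g4 hemispheres of 1 mouse. Ptbp3 goes up in 7 of 7 mice in HA-positive nuclei and in 4 of 7 in HA-negative nuclei, and Ptbp1 goes up in 6 of 7 HA-positive pairs, with 4 of the empty libraries at 0.

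Ptbp1 was close to the limit of detection in every group. The empty HA-positive libraries held 0, 0, 16.5, 9.76, 0, 58.6 and 0 CPM in animals 17 to 23, and the g4 ones 11.8, 48.5, 19.6, 10.5, 14.0, 17.4 and 14.9 CPM. It was thus detected in 3 of 7 empty and 7 of 7 g4 libraries, and higher with g4 in 6 of 7 animals, but the highest value of all was in an empty library. The 4 zeros allow up to 6.15 to 10.8 CPM at 3 counts each. The means were 12.1 ± 21.5 and 19.5 ± 13.1 CPM, from 43 and 72 counts, and 31 of the 43 counts came from animal 22. Without the filter the edgeR log2 fold change was 0.58 ± 0.65 (adjusted p = 0.745). The same fit blocked on the animal gave 1.66 ± 0.88 (edgeR adjusted p = 0.972). Without the empty library of animal 22 the unblocked value was 2.00 ± 0.79 (edgeR adjusted p = 0.398), and the empty mean was 4.38 ± 7.11 CPM (n = 6). The gene lies at chr10:79854427-79864771 and shares 251 exonic bases with Plppr3 on the other strand, which had 35, 51, 50 and 47 counts in the empty HA-negative, g4 HA-negative, empty HA-positive and g4 HA-positive groups. Ptbp1 also shares 437 exonic bases with Gm17134 (0 counts in each sort) and 295 with E130317F20Rik (no counts given), both on the other strand. Nova2 shares 2652 of its 8372 exonic bases with Gm26821 on the other strand, for which no counts are given. Because the strand setting is not given, reads in these shared stretches cannot be told apart. In HA-negative nuclei Ptbp1 ran from 4.02 to 30.3 CPM with empty (median 9.02) and from 3.76 to 16.7 with g4 (median 8.84).

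Ptbp2, the neuronal PTB protein, was counted 213 to 318 times per group and did not differ between vectors beyond its spread. In HA-positive nuclei it ran from 49.5 to 83.1 CPM with empty (median 74.9) and 53.3 to 144 CPM with g4 (median 81.8), with overlapping groups. The log2 fold change was 0.21 ± 0.25 (edgeR adjusted p = 0.929), higher in 5 of 7 animals. In HA-negative nuclei, where Ptbp2 means were 72.7 ± 23.9 and 75.8 ± 19.7 CPM, it was 0.06 ± 0.21 (adjusted p = 0.999). On the scale of counts per length, Ptbp1 made up 15.5 ± 22.5% of the sum of Ptbp1, Ptbp2 and Ptbp3 in empty HA-positive nuclei. The median of that group was 0% and its highest library 57.7%. The share was 23.5 ± 9.15% (median 21.3%) in g4 HA-positive nuclei. In empty and g4 HA-negative nuclei it was 17.2 ± 8.84% (median 15.0%) and 14.6 ± 7.55% (median 14.2%), with all groups overlapping.

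The members of the Rbfox, Nova and Elavl families did not pass the test between vectors in HA-positive nuclei. Rbfox2, a widely expressed Rbfox protein, stood at 112, 150, 135, 130, 78.4, 73.7 and 136 CPM with empty in animals 17 to 23, and at 166, 222, 156, 149, 188, 139 and 112 CPM with g4. It was higher in 6 of 7 animals, with 4 g4 libraries above the highest empty one, and the low values were the empty libraries of animals 21 and 22. The log2 fold change was 0.44 ± 0.20 (edgeR adjusted p = 0.730), which was not called. Both of those libraries had fewer than 10000 genes, and without the 4 such libraries the means were 138 ± 8.42 (n = 4) and 152 ± 25.8 CPM (n = 6) in place of 117 ± 29.8 and 162 ± 35.5. Rbfox1 changed by 0.07 ± 0.24 and Rbfox3 by 0.21 ± 0.21 on the log2 scale, Nova1 by −0.46 ± 0.32 and Nova2 by −0.33 ± 0.26, and Elavl2 by 0.46 ± 0.24 and Elavl4 by −0.16 ± 0.36, with edgeR adjusted p from 0.751 to 0.974. Without the 4 libraries the log2 fold change was 0.12 ± 0.19 for Rbfox2, 0.10 ± 0.21 for Elavl2 and 0.09 ± 0.31 for Nova1, whose sign turned (edgeR adjusted p from 0.926 to 0.972). Nova1, which mouse motor neurons need to survive, had its 2 highest empty libraries at 132 and 111 CPM in animals 17 and 21.

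In HA-negative nuclei 0 of 9 tested members were called between vectors, as were 0% of all 6262 genes tested (236 at an unadjusted p under 0.05, of which 0 were members), and 0.0639% of genes had groups that did not overlap, 0 of them members. The member log2 fold changes lay between −0.19 ± 0.15 (Rbfox1, lower with g4 in 6 of 7 animals) and 0.13 ± 0.25 (Elavl2). The test of the difference between HA-positive and HA-negative nuclei likewise called 0 of 9 members and 0% of 7197 genes. An unadjusted p under 0.05 was found for 359 genes, of which 1 was a member (Ptbp3, edgeR unadjusted p = 0.0124).

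**Figure D3:**
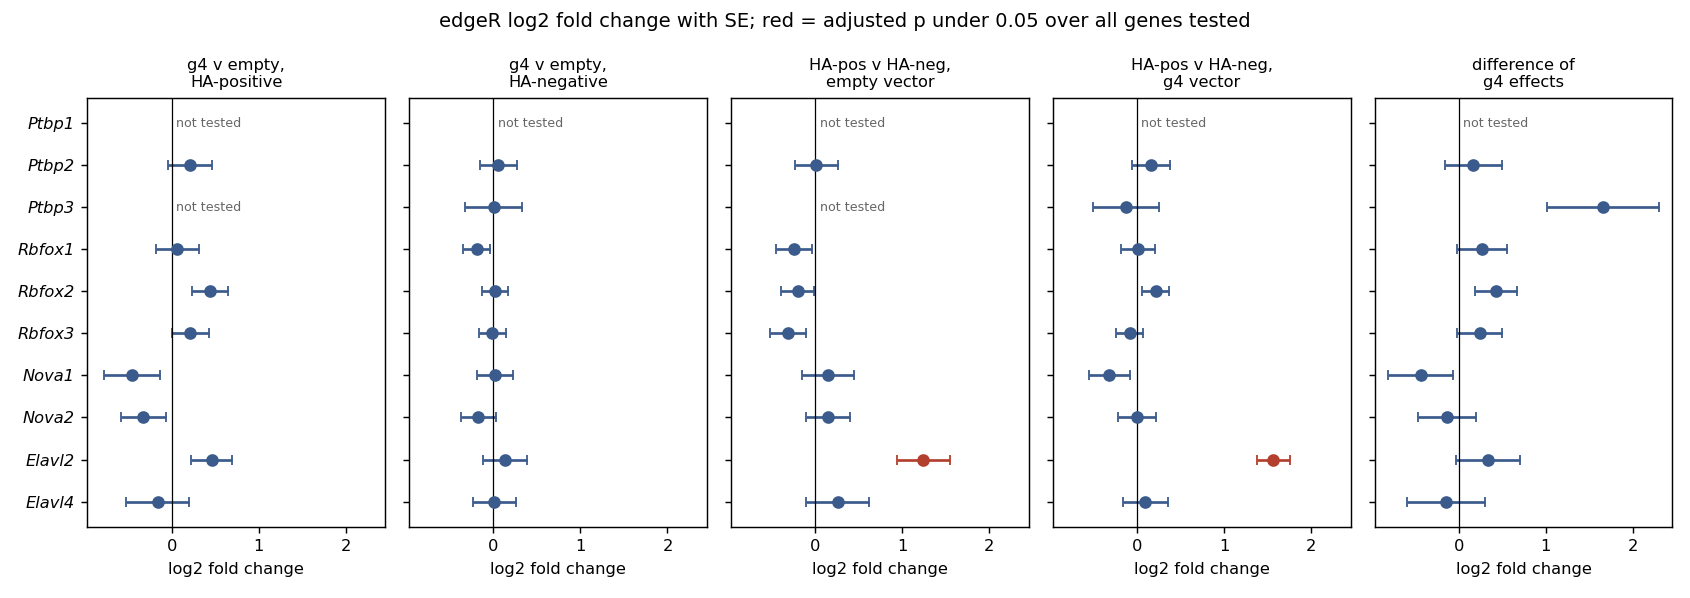
edgeR log2 fold change (x axis, with SE bars) of each member (y axis) in the 4 comparisons and in the difference of the g4 effects, with calls in red and members under the count filter written as not tested. Elavl2 is the only member called, at 1.24 and 1.57 in the comparisons of HA-positive with HA-negative nuclei.

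Elavl2, at chr4:91250763-91400785 on the minus strand, was the member that differed between sorts. With empty it stood at 25.8 to 97.1 CPM in HA-negative nuclei (median 54.3) and 51.0 to 261 CPM in HA-positive ones (median 131), higher in 7 of 7 animals with overlapping groups (3.05% of genes tested had groups that did not overlap). Its log2 fold change was 1.24 ± 0.30 (edgeR adjusted p = 0.00881), 1 of 8 tested members called where 7.01% of 5538 genes were. With g4 it stood at 43.1 to 100.1 CPM in HA-negative nuclei (median 60.5) and 135 to 258 CPM in HA-positive ones (median 202), higher in 7 of 7 animals, and the groups did not overlap, as for 1.76% of all genes tested. The log2 fold change was 1.57 ± 0.19 (edgeR adjusted p = 8.38e-07), 1 of 9 tested members called against 6.4% of 6264 genes. The lone low HA-positive value with empty, 51.0 CPM in animal 22, was the lowest of its group. The call held in all 21 alternatives run for each vector, with a log2 fold change of 0.99 to 1.52 and adjusted p up to 0.0406 for empty (the last without the HA-positive library of animal 19), and 1.46 to 1.70 for g4.

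Between sorts, Elavl2 moved with inhibitory neuron markers. Their sum was 1021 ± 101 and 953 ± 137 CPM in empty and g4 HA-negative nuclei and 3099 ± 486 and 2755 ± 604 CPM in the HA-positive ones, with 8 of 10 and 9 of 10 tested markers called higher in HA-positive nuclei. Elavl2 amounted to 6.03 ± 3.16 and 6.71 ± 1.22% of that sum in HA-negative nuclei and to 4.38 ± 1.97 and 7.24 ± 2.19% in HA-positive nuclei. Between vectors in HA-positive nuclei neither Elavl2 nor any inhibitory marker was called. Elavl2 was higher with g4 in 6 of 7 animals (log2 fold change 0.46 ± 0.24, edgeR adjusted p = 0.751). Its log2 fold change was 0.10 without the HA-positive libraries under 10000 genes. Of 11 tested inhibitory markers, 9 were lower and 2 higher. The genes whose log2 (CPM + 1) followed Elavl2 most closely over the 28 libraries were Erbb4 (r = 0.80), Grin3a (r = 0.77) and Sst (r = 0.76), of 2861 genes with a mean of at least 50 CPM. Erbb4 and Sst are on the inhibitory marker list, and all points share library depth and the 4 groups, so these values are descriptions. The part of cell composition in the Elavl2 difference was not tested.

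**Figure D4:**
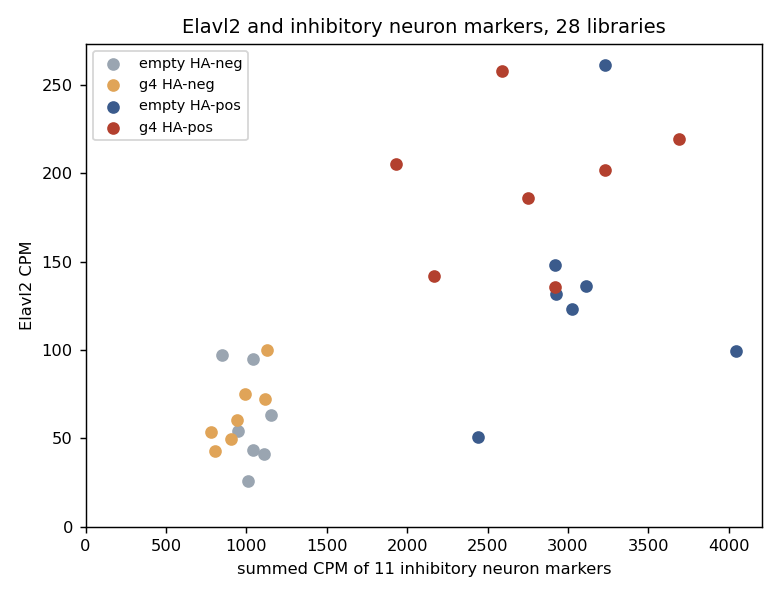
Elavl2 (y axis, CPM) against the summed CPM of 11 inhibitory neuron markers (x axis) in 28 libraries, colored by group. HA-negative libraries lie at 782 to 1152 CPM of marker sum and up to 100.1 CPM of Elavl2, and HA-positive libraries at 1933 to 4046 CPM of marker sum.

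The other members that passed the filter did not differ between HA-positive and HA-negative nuclei beyond the test's threshold. Ptbp1 fell under the filter with each vector. With g4 it was higher in HA-positive nuclei in 6 of 7 animals. Its log2 fold change was 1.04 ± 0.55 by edgeR without the filter (adjusted p = 0.337). DESeq2 gave 1.07 ± 0.50 (adjusted p = 0.281). With empty Ptbp1 was higher in 3 of 7 animals, at 0.08 ± 0.67 by edgeR without the filter (adjusted p = 0.961). With empty, Rbfox3 was at 143 ± 26.0 CPM in HA-negative and 112 ± 34.3 CPM in HA-positive nuclei, lower in 6 of 7 animals (log2 fold change −0.31 ± 0.21, edgeR adjusted p = 0.450). With g4 it was 143 ± 24.3 and 133 ± 27.7 CPM. Ptbp3 with empty was lower in HA-positive nuclei in 7 of 7 animals, at 28.7 ± 9.56 against 8.03 ± 6.23 CPM, but fell under the filter. The same empty HA-positive libraries, with 24 counts of Ptbp3, enter the comparison of vectors and the difference of the g4 effects. DESeq2 called this sort difference (−1.81 ± 0.52, adjusted p = 0.0153). With the filter removed edgeR did not (−1.81 ± 0.59, adjusted p = 0.0580), and the same fit blocked on the animal gave −1.96 ± 0.67 (edgeR adjusted p = 0.101). Of the fits that leave out 1 library, 6 let Ptbp3 pass the filter. Of these, 4 called it, with edgeR adjusted p from 0.0238 to 0.0736 over the 6. In these 6 fits Ptbp3 passed the filter through the HA-negative libraries (15.3 to 42.2 CPM). The HA-positive ones held at most 16.4 CPM. The 4 calls are thus no separate support for the difference. DESeq2 without the HA-positive libraries under 10000 genes gave −1.49 ± 0.52 (adjusted p = 0.0690), so the call rests on the library set as well as the tool. With g4, Ptbp3 was at 28.9 ± 14.1 and 27.0 ± 11.9 CPM in the 2 sorts, a log2 fold change of −0.13 ± 0.38 (edgeR adjusted p = 0.907). Oligodendrocyte and microglia markers were lower in HA-positive nuclei too (7 of 7 and 5 of 5 tested called with empty), and their part in this was not tested.

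Co-variation over the 28 libraries was moderate. The genes closest to Rbfox3 were Etv5 (r = 0.81) and to Rbfox2 Relch (r = 0.76), those to Elavl4 Mon2 (r = 0.75), to Rbfox1 Phf20 (r = 0.68), to Nova2 Set (r = 0.66), to Ptbp2 Syncrip (r = 0.63) and to Nova1 Dnajc13 (r = 0.63). These are the highest of 2861 candidates each, and differences of group and depth enter all of them.

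Other splicing regulators of neurons moved with the sort in part. Of the 17 genes on that list (Srrm3, Srrm4, Celf1 to Celf6, Mbnl1 to Mbnl3, Khdrbs1 to Khdrbs3, Elavl1, Elavl3 and Qk), 14 were tested with empty, of which 3 fell and 0 rose, against 3.5% of all genes in each direction, with a median log2 fold change of −0.43 (0.01 over all genes). With g4, 3 of 15 fell and 0 rose (3.08% of all genes fell), with a median of −0.09. Qk, an RNA-binding protein abundant in glia, fell by 1.59 ± 0.21 with empty (edgeR adjusted p = 3.96e-06) and by 1.12 ± 0.24 with g4 (adjusted p = 0.00826) on the log2 scale, and by 1.39 ± 0.17 with g4 without the HA-positive library of animal 19. Celf2, a CUG-binding regulator, fell by 0.81 ± 0.13 and 0.50 ± 0.12 (edgeR adjusted p = 8.04e-05 and 0.00484). Celf1 fell by 0.75 ± 0.18 with empty (edgeR adjusted p = 0.00775) and was −0.23 ± 0.16 with g4 (adjusted p = 0.489), and the muscleblind gene Mbnl2 fell by 0.56 ± 0.16 with g4 (adjusted p = 0.0245) and was −0.45 ± 0.15 with empty (adjusted p = 0.0689). Oligodendrocyte markers moved with these falls, with 7 of 7 tested called lower with empty and 6 of 8 with g4, and their part was not tested.

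**Figure D5:**
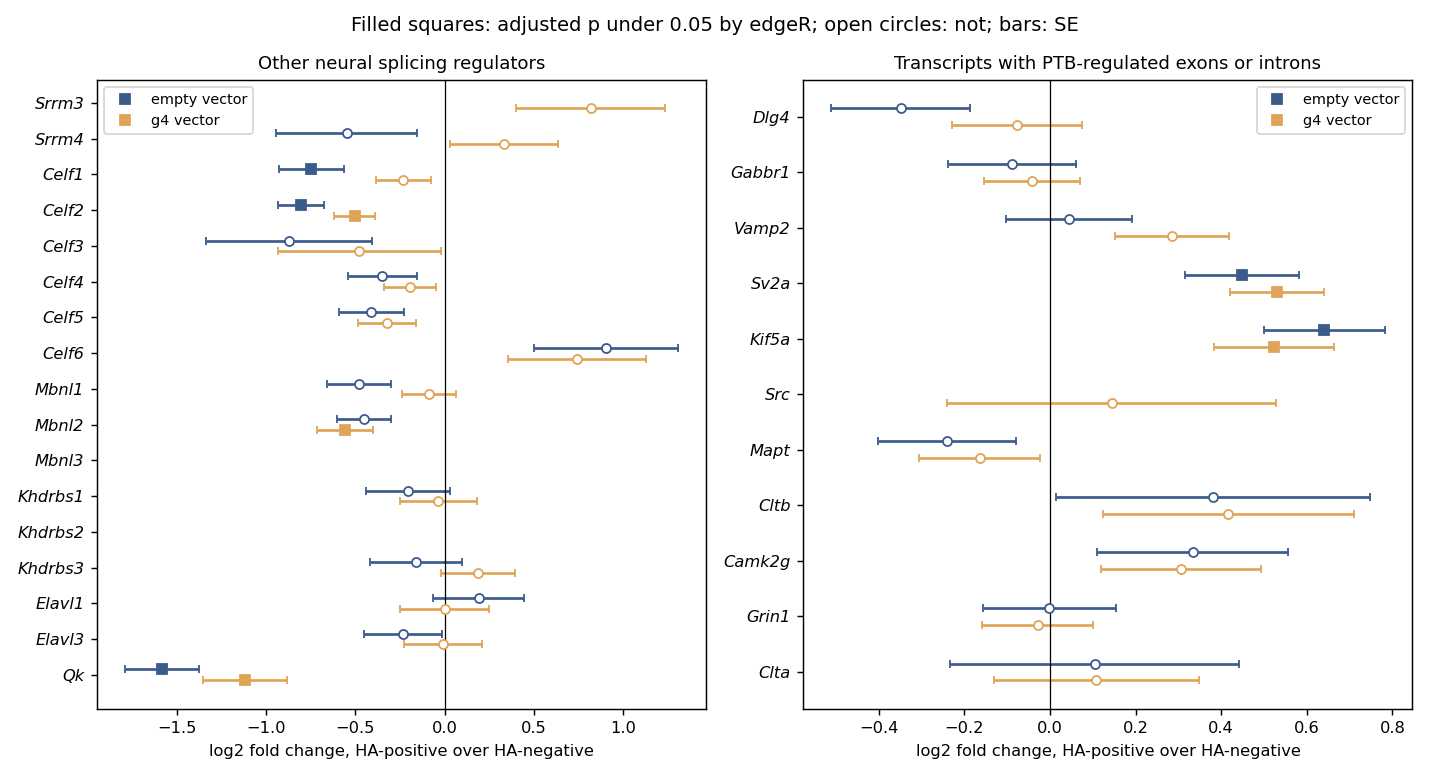
edgeR log2 fold change of HA-positive over HA-negative nuclei (x axis, with SE bars) for 17 other neural splicing regulators (left) and 11 transcripts with PTB-regulated exons or introns (right), for each vector. Filled squares were called and open circles were not, and genes under the filter have no mark; Qk lies lowest on the left and Kif5a and Sv2a are called on the right.

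Of 11 transcripts known to be spliced or retained in the nucleus under PTB control (Dlg4, Gabbr1, Vamp2, Sv2a, Kif5a, Src, Mapt, Cltb, Camk2g, Grin1 and Clta), Kif5a, a neuronal kinesin, and Sv2a, a synaptic vesicle protein, rose in HA-positive nuclei with both vectors. With empty 2 of 10 tested rose and with g4 2 of 11, by 0.64 ± 0.14 and 0.52 ± 0.14 (Kif5a, edgeR adjusted p = 0.00322 and 0.0185) and 0.45 ± 0.13 and 0.53 ± 0.11 (Sv2a, adjusted p = 0.0353 and 0.00179), where 3.5 and 3.32% of all genes rose. The medians were 0.07 and 0.14. Total transcript counts do not show which exons were included. Of 11 PTB partners and related hnRNP genes 0 of 9 tested were called with either vector, with Hnrnpa2b1 at −0.30 ± 0.15 (empty) and Pcbp2 at 0.41 ± 0.22 (g4) the lowest p. Of 17 core splicing and SR protein genes, Sf3b1, a part of the U2 snRNP, fell by 0.60 ± 0.18 with empty (edgeR adjusted p = 0.0369), 1 of 16 tested. 14 of the 16 had lower values in HA-positive nuclei (median −0.35), and 3 were called without the HA-positive libraries under 10000 genes and 2 with DESeq2 or voom. With g4, 13 of 16 were lower (median −0.11) and 0 were called by edgeR, DESeq2 or voom.

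Between vectors, 0 genes of these 4 lists were called in either sort by edgeR, DESeq2 or voom. By edgeR, an unadjusted p under 0.05 was found for 3 of the regulators in HA-positive nuclei, and for 1 regulator and 1 core gene in HA-negative nuclei. In HA-positive nuclei the genes with the smallest p of the regulators were Qk at 0.64 ± 0.27 (log2 fold change, adjusted p = 0.730) and Srrm4, a microexon regulator, at 0.92 ± 0.41 (adjusted p = 0.730), 11 of 15 tested being higher with g4 (median 0.23). The PTB-regulated transcripts had a median of 0.01, with Vamp2 at 0.12 ± 0.15 and Mapt at 0.12 ± 0.18. The median was 0.05 for the PTB partners (Hnrnpa2b1 0.30 ± 0.17) and 0.17 for the core genes (Son 0.20 ± 0.16, U2af2 −0.43 ± 0.36). In HA-negative nuclei the medians were 0.01, −0.04, −0.03 and −0.05 for the regulators, PTB-regulated transcripts, partners and core genes, with Elavl3 at −0.40 ± 0.18 and U2af2 at −0.63 ± 0.29 (both adjusted p = 0.999) the lowest p. The test of the difference between sorts called 0 of these genes, with Celf1 at 0.53 ± 0.24 (adjusted p = 0.971) the smallest p among the regulators.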

How the data were processed

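Nuclei were sorted on the HA tag and libraries made from picogram amounts of RNA, per the labels' protocols. The authors deposited raw counts per gene, per the labels, aligned to GRCm38 per the submitters' processing notes; for the aligner, counter, strand setting and molecular identifiers, nothing is given in the sources used here. Missing cells were read as a count of 0, and 1 entry without a gene name (0 counts) was left out. Groups and animal numbers came from the sample titles and descriptions, which tie animals 21 to 23 to columns numbered 22 to 24. Counts were tested with edgeR 4.0.16 in R 4.3.3 (filterByExpr, TMM, robust quasi-likelihood fit, two-sided) with calls at p under 0.05 after Benjamini-Hochberg adjustment over all genes tested. DESeq2 1.42.0, limma 3.58.1 (voom), other scalings, no filter, the animal as a block and leaving out libraries were alternatives. By the labels, the 2 vectors and 2 sorts of a number come from the same animal, so the numbers pair the libraries. The Xist and Y-linked values of animal 19 differ between its g4 HA-positive library and its other libraries, so that pair is uncertain. The mean correlation of same-animal deviations was 0.00403 to 0.0621, and 2 to 3 of 7 libraries correlated best with the library of their own number. The 10 members and the lists were chosen with earlier results of these data known. The text names all members, the called genes of each list (up to 4 per direction) or, with 0 called, up to 2 with the smallest p, and the genes most like a member. The fits were first tested on simulated data. Sites and gene models came from GENCODE M21, to which 41474 identifiers matched. A gene of the list of PTB-regulated transcripts was left out and is not reported here.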

Additional observations from a re-analysis of the deposited data

Results flagged for a closer look

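In 4 of 40 groups of 7 libraries (10 members in 4 groups), 1 library stood far from the other 6. The rule marks about 1 in 20 groups by chance where values are normally distributed. Values from low counts, such as those of Ptbp1, need not be, so no excess over chance is read from the 4. Ptbp1 stood at 58.6 CPM in the empty HA-positive library of animal 22 (next 16.5 CPM), at 48.5 CPM in the g4 HA-positive library of animal 18 (next 19.6 CPM) and at 30.3 CPM in the empty HA-negative library of animal 22 (next 13.2 CPM). Ptbp2 stood at 144 CPM in the g4 HA-positive library of animal 23 (next 89.3 CPM).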

How the results depend on the processing

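Of 1020 log2 fold changes of members under alternatives, 924 kept direction and side of the threshold and 96 uncalled ones changed sign. The tally holds only members tested in the main fit. It leaves out Ptbp1 throughout, and Ptbp3 between vectors in HA-positive nuclei and between sorts with empty. All 40 group means moved by less than their SD when library sizes replaced TMM factors. The 3 genes called between vectors in HA-positive nuclei became 5 with DESeq2, 1 with voom, 28 without a filter on low counts, 1 with the animal as a replicate block, 0 without the libraries under 10000 genes, and 2 to 6 when 1 library was left out. In HA-negative nuclei DESeq2 called 1 gene where edgeR called 0. With empty, the 388 genes called between sorts became 664 with DESeq2, 661 without a filter, 324 with the replicate block and 293 to 496 with 1 library left out, and the members called became 2 with DESeq2 (Elavl2 and Ptbp3) and 1 to 2 with 1 library left out. With g4, the 401 became 259 with library sizes alone, 391 with the block and 299 to 507 with 1 library left out. The difference of g4 effects gave 3 genes without a filter, against 0. Library sizes alone split the calls between sorts into 140 higher and 185 lower with empty (194 and 194 with TMM) and 142 and 117 with g4 (208 and 193). The paired fit with the block changed no other call of a member. Low depth limits Ptbp1 and Ptbp3, which did not pass the filter between vectors in HA-positive nuclei. Tests of these genes without the filter, and of the lists without libraries, were added after the data were seen. The cause of the changed counts was not tested.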
